A study of Mus musculus with 13 samples.

Results

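Insulin signalling genes were followed across genotype and temperature in mouse brown fat, the depot that turns fuel into heat. The 10 genes were Insr, Irs1, Irs2, Irs3, Pik3r1, Akt1, Akt2, Foxo1, Grb10 and Grb14. They were found by gene name among the 55357 genes of the deposited count table, and all 10 were among the 11073 that held enough counts to test. The study asks what calcium entry through STIM1 and STIM2, the calcium sensors of the endoplasmic reticulum, does for brown fat. Control mice carried both genes flanked by loxP sites (Stim1/2_fl/fl) and no Cre. Knockout (KO) mice (Stim1/2_Adp-Cre) deleted them through Cre driven by the adiponectin promoter, which is active in brown and white adipocytes, so other cells of the tissue keep both genes and white fat lacks them too. Mice stayed at room temperature (RT) or were kept at 4 °C for 6 h (cold), giving 2 control RT, 3 KO RT, 4 control cold and 4 KO cold libraries. The labels give no age or sex. Whether replicate libraries stem from different mice is not in the labels, so the p-values describe how far these libraries vary, and part of that may be technical.

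Insulin binds the insulin receptor (Insr), a tyrosine kinase that phosphorylates adaptor proteins of the IRS family. These recruit PI3-kinase, whose p85α regulatory subunit is made by Pik3r1, and the lipid it makes activates the kinases AKT1 and AKT2. AKT phosphorylates FOXO1 and keeps it out of the nucleus, where FOXO1 otherwise switches on genes of fasting, and the adaptors GRB10 and GRB14 bind the active receptor and hold it back. In adipocytes, AKT2 is the isoform best known for insulin-driven glucose uptake. All values here are mRNA tags, which carry no information on phosphorylation or protein.

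The start regions of Irs1 and Irs2 are shown because Irs2 was called higher in cold in control and Irs1 lower in cold in KO. Both are RefSeq promoter sequences of build GRCm38.p6, the 250 bases before the start site, written 5′ to 3′ on the gene's own strand, which is the minus strand for both. The Irs1 stretch lies at chr1:82291440-82291689 and the Irs2 stretch at chr8:11008930-11009179. Capitals mark TGTTTTG, the core of the insulin response element, and CACGTG, the E-box.

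Irs1: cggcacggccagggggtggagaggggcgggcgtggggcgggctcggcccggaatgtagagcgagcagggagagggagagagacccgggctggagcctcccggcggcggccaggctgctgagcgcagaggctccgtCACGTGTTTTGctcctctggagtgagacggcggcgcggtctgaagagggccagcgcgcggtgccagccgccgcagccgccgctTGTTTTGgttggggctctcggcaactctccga
Irs2: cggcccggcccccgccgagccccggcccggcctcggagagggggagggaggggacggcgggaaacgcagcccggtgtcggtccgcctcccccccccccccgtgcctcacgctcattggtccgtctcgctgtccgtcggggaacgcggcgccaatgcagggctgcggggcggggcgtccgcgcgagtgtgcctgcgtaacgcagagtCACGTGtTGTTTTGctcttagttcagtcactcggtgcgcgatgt

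Both stretches held both motifs, searched on both strands. Irs2 held the E-box at 44 bases and the insulin response core at 37 bases before the start, with 1 base between them. Irs1 held the E-box at 115 bases, overlapping an insulin response core at 111, and a second such core at 32. Of 32851 mouse promoters of the same length, 5.56% held the insulin response core, 6.02% held the E-box and 0.295% held both. The pair was GC-rich at 72.4% and 72.8%, against a median of 52.4% over all promoters. This was not particular to the pair: 1 start site each of Grb10 (81.2%), Akt1 (78.4%), Pik3r1 (76.4%) and Grb14 (75.2%) held more. The remaining start sites of the genes lay at 42.4% to 58.8%. Start regions of 9 of the 10 genes were matched, with 15 start sites, and that of Insr was not among them. A FOXO site (TGTTTAC, in 3.17% of promoters) was found at 1 start site of Akt1, 161 bases before it. The cAMP response element TGACGTCA (in 1.55% of promoters) was found at none of the 15. These are matches of letters in a window, and no binding was measured.

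Libraries held 1570684 to 2016178 counts. Stim1 lay at 114 to 150 CPM (counts scaled to a common library total) in the 6 control libraries and at 62.0 to 108 CPM in the 7 KO libraries. Stim2 lay at 29.0 to 54.5 CPM in control and at 13.5 to 29.7 CPM in KO, below every control library of the same temperature. In edgeR's quasi-likelihood test of KO against control, Stim2 was called lower in cold (0.54-fold, adjusted p 0.0382) but not at RT (0.66-fold). Stim1 was called at neither temperature (0.73-fold in cold, adjusted p 0.0570, and 0.54-fold at RT, adjusted p 0.349). The brown and general adipocyte markers (Ucp1, Adipoq and 10 others) summed to 17348 to 19491 CPM at RT and to 22519 to 27746 CPM in cold. With cold Ucp1, Dio2 and Elovl3 of these 12 rose in both genotypes, while Cebpa and Ebf2 fell in both and Lipe in control, and the median log2 fold change was -0.09 in control and 0.09 in KO. Skeletal muscle markers set 3 RT libraries apart: they summed to 2939 CPM in control RT 1, 1726 in KO RT 1 and 1208 in KO RT 2, and to 5.51 to 381 CPM in the other 10. None of the 12 muscle markers was at 0 in any group, and 8 of 12 were lower in cold in control and 2 of 12 in KO. Where leaving out these 3 libraries ends a call of cold against RT given here, the value without them is printed. This alternative was chosen after seeing the data. It leaves 1 library in each RT group, assumed to vary like the others. Over the remaining lists, macrophage sums ran from 130 to 373 CPM, endothelial from 892 to 1527, smooth muscle from 560 to 958, fibroblast from 718 to 1705, Schwann cell from 205 to 400, erythroid from 1076 to 3304 and lymphocyte from 0.522 to 15.7. In bulk tissue, fewer cells of a type and less RNA per cell cannot be told apart.

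A 3′ tag library gives about 1 tag per mRNA, so CPM sets genes side by side without dividing by length. In control RT the highest mean levels were Akt2 (265 ± 4.51 CPM, SD, n = 2), Foxo1 (218 ± 129), Pik3r1 (215 ± 34.1) and Irs2 (171 ± 161), and each overlapped the next in the order. Irs1 followed (126 ± 51.7), above Akt1 (85.0 ± 3.40), Insr (65.2 ± 10.9), Grb14 (31.2 ± 0.702), Grb10 (27.2 ± 0.744) and Irs3 (11.4 ± 5.13) in both libraries. In control cold the order began with Irs2 (452 ± 102.6 CPM, SD, n = 4) and Foxo1 (451 ± 86.7), which overlapped, then Akt2 (144 ± 25.8), Insr (98.0 ± 12.5), Akt1 (89.8 ± 12.3) and Irs1 (76.5 ± 20.3). The last 3 of these overlapped, and Pik3r1, among the highest at RT, came below them at 50.7 ± 6.80 CPM. In KO cold, Foxo1 (424 ± 19.6 CPM, SD, n = 4) and Irs2 (349 ± 56.2) were again the highest and overlapped, and every library of Irs2 lay above every library of Akt2 (184 ± 16.1). Irs3 was the lowest of the 10 in all 4 groups.

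**Figure D1:**
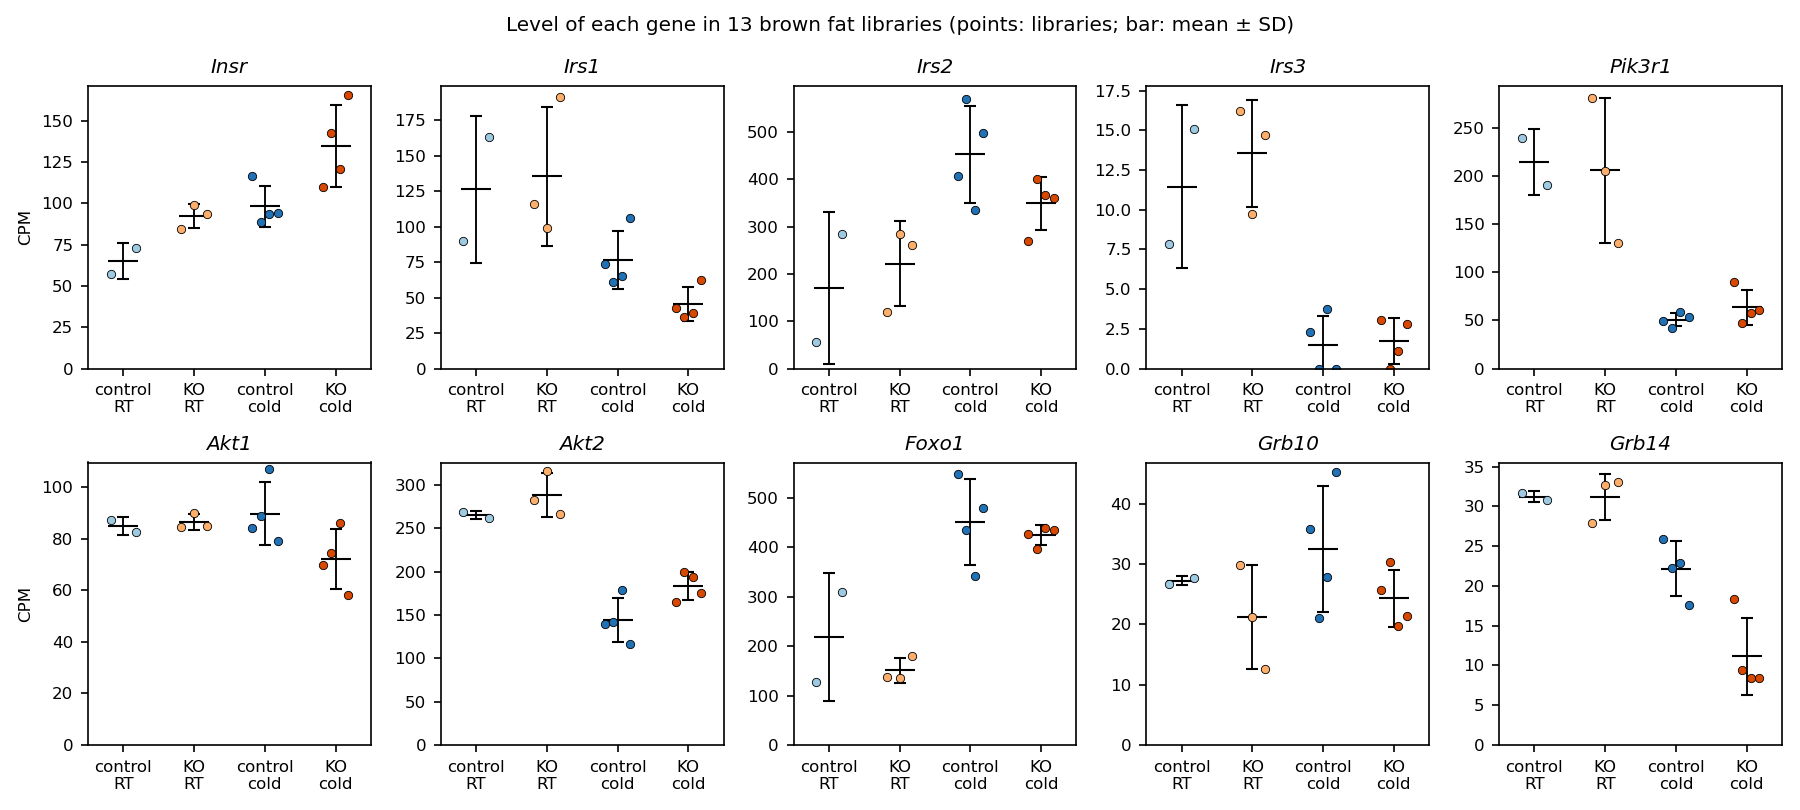
Levels of the 10 insulin signalling genes in CPM (y axis, starting at 0) in the 4 groups (x axis). Points are the 13 libraries and bars the mean ± SD. Pik3r1, Irs3 and Akt2 are lower in every cold library than in every RT library of the same genotype, and Foxo1 is higher.

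Cold against RT gave more calls among these genes than KO against control. In control, 3 of the 10 were higher in cold (Insr, Irs2, Foxo1) and 3 lower (Irs3, Pik3r1, Akt2) at an adjusted p under 0.05. Of all tested genes 25.2% passed in control, 12.7% higher and 12.6% lower. In KO, 2 were higher (Insr, Foxo1) and 5 lower (Irs1, Irs3, Pik3r1, Akt2, Grb14), where 18.9% of all genes passed, 9.43% higher and 9.45% lower. Between KO and control in cold, 1 of the 10 passed (Grb14, lower), where 5.93% of all genes did, 2.44% higher and 3.49% lower. At RT none of the 10 passed, where 0% of all genes did. Cold and RT libraries did not overlap for 7 of the 10 in each genotype, against 40.4% of all genes in control and 32.2% in KO. Irs3 is in these counts and in the medians below. It met the filter on low counts through its RT libraries alone, where it is high, so its fall is given as a description. KO and control did not overlap for 0 of the 10 in cold and 1 at RT, against 12.8% and 16.6% of all genes. Adjusted p is edgeR's quasi-likelihood value with Benjamini-Hochberg adjustment over all 11073 genes. At RT 346 genes were under an unadjusted p of 0.05 in that test, with Insr among them. DESeq2 called 3 genes at RT, and neither tool called any of the 10 there. The median absolute log2 fold change of the 10 was 0.80 in control and 1.08 in KO for cold against RT, against 0.40 and 0.31 over all genes. For KO against control it was 0.36 in cold and 0.20 at RT, against 0.22 and 0.16 over all genes.

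**Figure D2:**
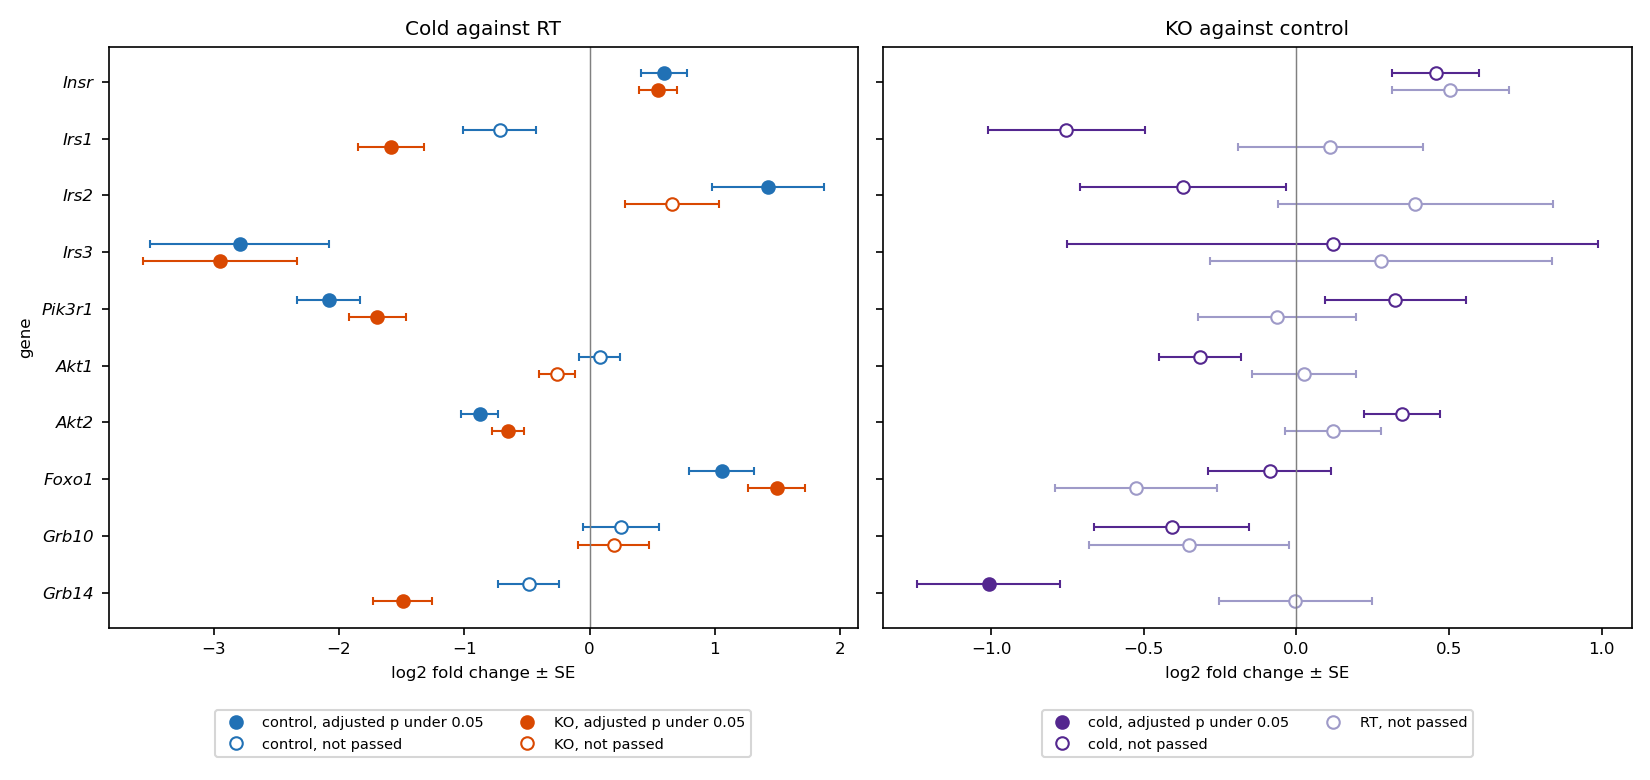
Log2 fold change ± SE (x axis) of each gene (y axis), for cold against RT in control and KO (left) and for KO against control in cold and at RT (right). Filled points passed an adjusted p of 0.05. Grb14 in cold is the one filled point on the right, at -1.01.

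Insr, the receptor itself, rose with cold in both genotypes. At RT, Insr stood at 57.5 and 72.9 CPM in control libraries and at 84.6, 98.7 and 93.4 in KO. In cold, Insr stood at 116, 88.4, 93.5 and 93.9 CPM in control libraries and at 109.5, 142, 121 and 165 in KO. Every cold library lay above every RT library of the same genotype, and control and KO overlapped in cold through control cold 1 and KO cold 1. Cold raised Insr 1.51-fold in control (log2 0.60 ± 0.18, adjusted p 0.0257) and 1.46-fold in KO (0.55 ± 0.15, adjusted p 0.0200). Both calls rested on single libraries. In control, leaving out control RT 1 or control cold 1 gave adjusted p of 0.272 and 0.0677, and upper-quartile scaling and a fit of the 2 groups alone gave 0.0531 and 0.0636. In KO, leaving out KO RT 1, KO RT 3 or KO cold 4 gave 0.0502 to 0.0971. Without the 3 libraries high in muscle markers the log2 fold changes were 0.42 and 0.53 with adjusted p of 0.318 and 0.256.

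The difference in Insr between KO and control passed at neither temperature. In cold the log2 fold change was 0.46 ± 0.14 (1.37-fold, adjusted p 0.0696), and it was under 0.05 without control cold 1 or without KO cold 1 (0.0458 to 0.0498), with upper-quartile scaling (0.0384) and without the filter on low counts (0.0484). At RT it was 0.51 ± 0.19 (1.42-fold, unadjusted p 0.0172, adjusted p 1), and all 3 KO libraries lay above both controls, as 16.6% of all genes did not overlap there. The cold responses of Insr in KO and control differed by -0.05 ± 0.24 on the log2 scale (adjusted p 0.976).

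Among the adaptors, Irs1, the main IRS protein of white adipocytes and muscle, fell with cold in KO. At RT, Irs1 stood at 89.7 and 163 CPM in control libraries and at 116, 99.3 and 191 in KO. In cold, Irs1 stood at 73.7, 61.2, 65.0 and 106 CPM in control libraries and at 42.8, 36.0, 39.4 and 62.6 in KO. The 4 KO cold libraries lay below all 3 KO RT libraries, while control cold 4 exceeded control RT 1. Irs1 fell 2.998-fold with cold in KO (log2 -1.58 ± 0.26, adjusted p 0.000604) and the call held with any 1 library left out. In control the log2 fold change was -0.72 ± 0.29 (adjusted p 0.0787), and it passed without control RT 1, KO RT 3 or control cold 4 (0.0335 to 0.0498), with upper-quartile scaling (0.0463) and without the filter on low counts (0.00188). Without control RT 2 it was -0.22 (adjusted p 0.689). Without the 3 muscle-high libraries it was -1.10 (adjusted p 0.0273) in control and -2.08 (adjusted p 0.000865) in KO.

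KO against control in cold gave a log2 fold change of -0.75 ± 0.26 for Irs1 (adjusted p 0.0986), with KO cold 4 inside the control range, and an adjusted p of 0.000307 without the filter on low counts. Without the 3 muscle-high RT libraries the fold change was -0.75 with an adjusted p of 0.0454 and an SE of 0.20. The difference of both cold responses was -0.87 ± 0.40 (unadjusted p 0.0448, adjusted p 0.596). At RT the genotypes differed by 0.11 on the log2 scale, with an adjusted p of 1.

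Irs2, the adaptor whose transcription FOXO1 and cyclic AMP signalling are known to raise, had the widest spread of the 10 in control RT. At RT, Irs2 stood at 57.0 and 284 CPM in control libraries and at 119.5, 285 and 260.3 in KO. In cold, Irs2 stood at 408, 569, 335 and 498 CPM in control libraries and at 269, 401, 367 and 361 in KO. Control cold and control RT did not overlap, while KO cold 1 lay below KO RT 2. Cold raised Irs2 2.68-fold in control (log2 1.42 ± 0.45, adjusted p 0.0285). Without control RT 1, the library with 2939 CPM of muscle markers, the log2 fold change was 0.67 (adjusted p 0.264), and without control RT 2 it was 3.001. The call was also lost without control cold 2 (adjusted p 0.0584), with DESeq2 (0.0554) and in a fit of the 2 groups alone (0.0677). Without all 3 muscle-high libraries it was 0.66 (adjusted p 0.148). In KO the log2 fold change was 0.66 ± 0.37 (adjusted p 0.237), which passed without the filter on low counts (0.68, adjusted p 5.55e-05). KO against control in cold gave -0.37 ± 0.34 (adjusted p 0.590).

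Irs3, an adaptor of rodent adipocytes that is a pseudogene in humans, was scarce at RT and near the floor of detection in cold. RT libraries held 17 to 32 Irs3 counts, which is 7.82 and 15.1 CPM in the control libraries, with 16.2, 9.75 and 14.7 in KO. Cold libraries held 0 to 6 counts, which is 2.30, 0, 3.72 and 0 CPM in the control libraries, with 3.06, 0, 1.13 and 2.82 in KO. No cold library reached any RT library. The cold libraries alone would not have met the minimum count of 10, so Irs3 was tested only because of its RT libraries. Irs3 fell 6.92-fold in control (log2 -2.79 ± 0.71, adjusted p 0.00945) and 7.73-fold in KO (-2.95 ± 0.62, adjusted p 0.00314). The first call was lost without control RT 2 (adjusted p 0.0740), and without control cold 3 its value was -3.64. Without the muscle-high libraries both were called, at -3.22 (adjusted p 0.0347) and -3.06 (adjusted p 0.0497). Over whole groups the cold fold rests on 10 counts in control and 12 in KO. The genotypes differed by 0.12 ± 0.87 in cold, an error that leaves room for a change in either direction.

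Pik3r1, which makes the p85α, p55α and p50α subunits that tether PI3-kinase to the IRS proteins, had the smallest adjusted p of the 10 in both cold comparisons. At RT, Pik3r1 stood at 239 and 190.4 CPM in control libraries and at 281, 205 and 131 in KO. In cold, Pik3r1 stood at 49.5, 42.0, 58.2 and 52.9 CPM in control libraries and at 89.4, 47.5, 57.4 and 60.4 in KO. All 8 cold libraries lay below all 5 RT libraries. The fall was 4.24-fold in control (log2 -2.08 ± 0.25, adjusted p 4.12e-05) and 3.24-fold in KO (-1.70 ± 0.23, adjusted p 0.000115), and no single library ended either call. Without the muscle-high libraries it was -1.92 (adjusted p 0.000532) in control and -1.04 (adjusted p 0.0347) in KO, where KO RT 3, the library left, held the least Pik3r1 of the RT libraries. Genotypes differed by 0.32 ± 0.23 in cold (adjusted p 0.475) and by -0.06 at RT (adjusted p 1).

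Akt1, the more widely expressed of the AKT isoforms, passed in no comparison. At RT, Akt1 stood at 87.4 and 82.6 CPM in control libraries and at 84.6, 90.1 and 85.0 in KO. In cold, Akt1 stood at 84.1, 89.0, 107 and 79.1 CPM in control libraries and at 69.8, 74.6, 86.1 and 58.1 in KO. Neither cold comparison passed, with log2 fold changes of 0.08 ± 0.16 in control (adjusted p 0.758) and -0.26 ± 0.14 in KO (adjusted p 0.221). KO against control in cold gave -0.32 ± 0.13 (adjusted p 0.190), with the groups overlapping.

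Akt2 fell in cold in both genotypes. At RT, Akt2 stood at 269 and 262 CPM in control libraries and at 283, 316 and 267 in KO. In cold, Akt2 stood at 139.96, 142, 179 and 116 CPM in control libraries and at 165, 199.8, 194 and 176 in KO. All cold libraries lay below all RT libraries. The fall was 1.84-fold in control (log2 -0.88 ± 0.15, adjusted p 0.000562) and 1.57-fold in KO (-0.65 ± 0.13, adjusted p 0.00250), and each call held with any 1 library left out. Without the muscle-high libraries the control value was -0.86 (adjusted p 0.0199) and the KO value -0.54 (adjusted p 0.161). KO against control in cold gave 0.35 ± 0.13 for Akt2 (adjusted p 0.118), and this passed without control cold 3 alone (0.0371), whose 179 CPM lay inside the KO range.

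Counts of 2 isoforms from 1 library need no scaling, so the Akt2 share of Akt1 and Akt2 counts was compared as well. It was 75.5% and 76.0% in control RT, and 77.0%, 77.8% and 75.9% in KO RT. It was 62.5%, 61.5%, 62.6% and 59.6% in control cold, and 70.3%, 72.8%, 69.3% and 75.1% in KO cold. Each share rests on 277 to 774 counts, and the Wilson 95% interval of control cold 4, the library with the fewest, was 53.7% to 65.2%, which covers counting error only. All 4 KO cold shares lay above all 4 control cold shares, with means of 71.9% ± 2.62 (SD, n = 4) and 61.5% ± 1.39 (SD, n = 4). That difference of 10.4 percentage points had an exact two-sided permutation p of 0.0286, the smallest this design allows, and 0.171 after Benjamini-Hochberg adjustment over the 12 share tests. With 1 library left out the difference was 9.28 to 11.2 points. Cold libraries lay below RT libraries in both genotypes, with differences of -14.2 points in control and -5.001 points in KO and the smallest exact p those designs allow (0.133 and 0.0571, adjusted 0.214 and 0.171).

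**Figure D3:**
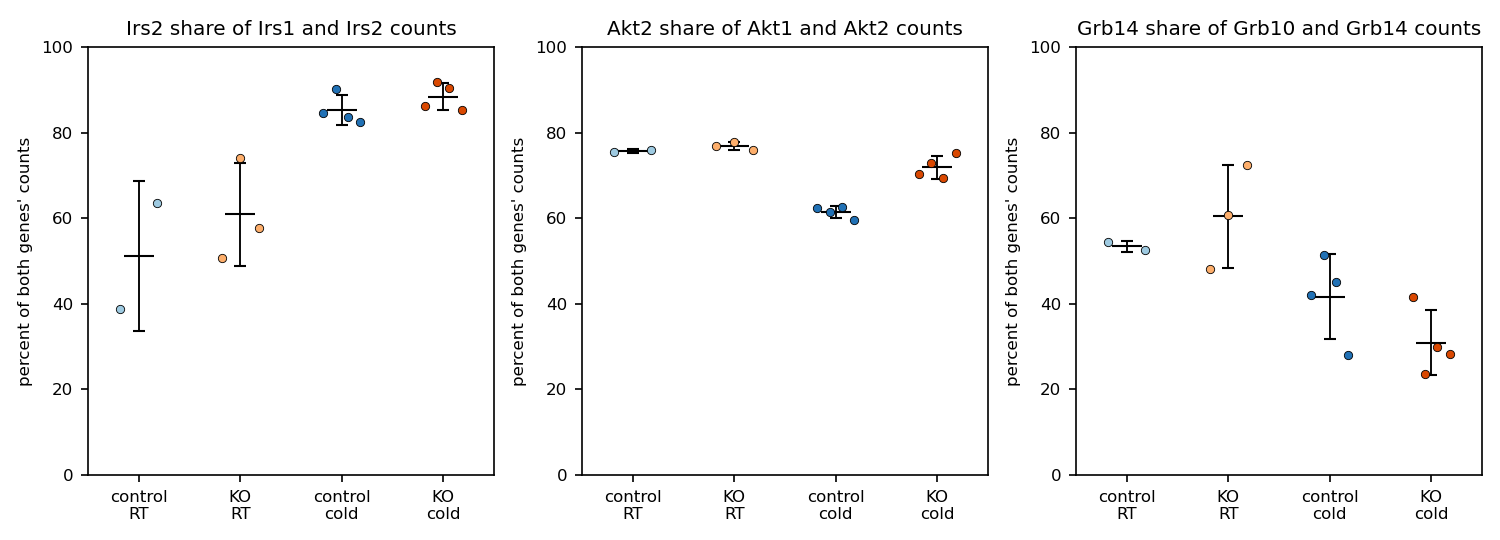
Share of 1 gene in the summed counts of a pair of related genes (y axis, percent), for Irs2 with Irs1, Akt2 with Akt1 and Grb14 with Grb10, in the 4 groups (x axis). Points are libraries and bars the mean ± SD. The Akt2 shares of control cold, 59.6% to 62.6%, lie apart from those of the other 3 groups.

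The Irs2 share of Irs1 and Irs2 counts was 51.2% ± 17.5 (SD, n = 2) in control RT and 60.9% ± 12.04 (SD, n = 3) in KO RT. It was 85.3% ± 3.45 (SD, n = 4) in control cold and 88.4% ± 3.14 (SD, n = 4) in KO cold. Every cold library, at 82.5% or more, lay above every RT library, at 74.2% or less. The rise of 34.1 points in control and 27.5 points in KO had the smallest exact permutation p allowed (0.133 and 0.0571, adjusted 0.214 and 0.171), and KO and control overlapped at both temperatures. With 1 library left out the rise was 21.7 to 46.4 points in control, the lowest without control RT 1, and 22.5 to 34.2 points in KO. Irs2 was the larger part of the pair's tags in all 8 cold libraries and in 4 of the 5 RT libraries, and 38.9% in control RT 1.

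Foxo1, the transcription factor that AKT restrains, was higher in cold. At RT, Foxo1 stood at 127 and 309.8 CPM in control libraries and at 137, 135 and 180.03 in KO. In cold, Foxo1 stood at 548, 434, 341 and 479 CPM in control libraries and at 427, 396, 439 and 435 in KO. Cold and RT did not overlap in either genotype. Foxo1 rose 2.08-fold in control (log2 1.05 ± 0.26, adjusted p 0.00767) and 2.81-fold in KO (1.49 ± 0.23, adjusted p 0.000330). The control call was lost without control RT 1 (log2 0.54, adjusted p 0.139) and without all 3 muscle-high libraries (0.54, adjusted p 0.148), while leaving out control RT 2 gave 1.84. In KO it held with any 1 library left out, and without the muscle-high libraries it was 1.24 (adjusted p 0.00910). Genotypes differed by -0.09 ± 0.20 in cold (adjusted p 0.854), and by -0.53 ± 0.27 at RT (unadjusted p 0.0647), where leaving out control RT 2 turned the value to 0.25.

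**Figure D4:**
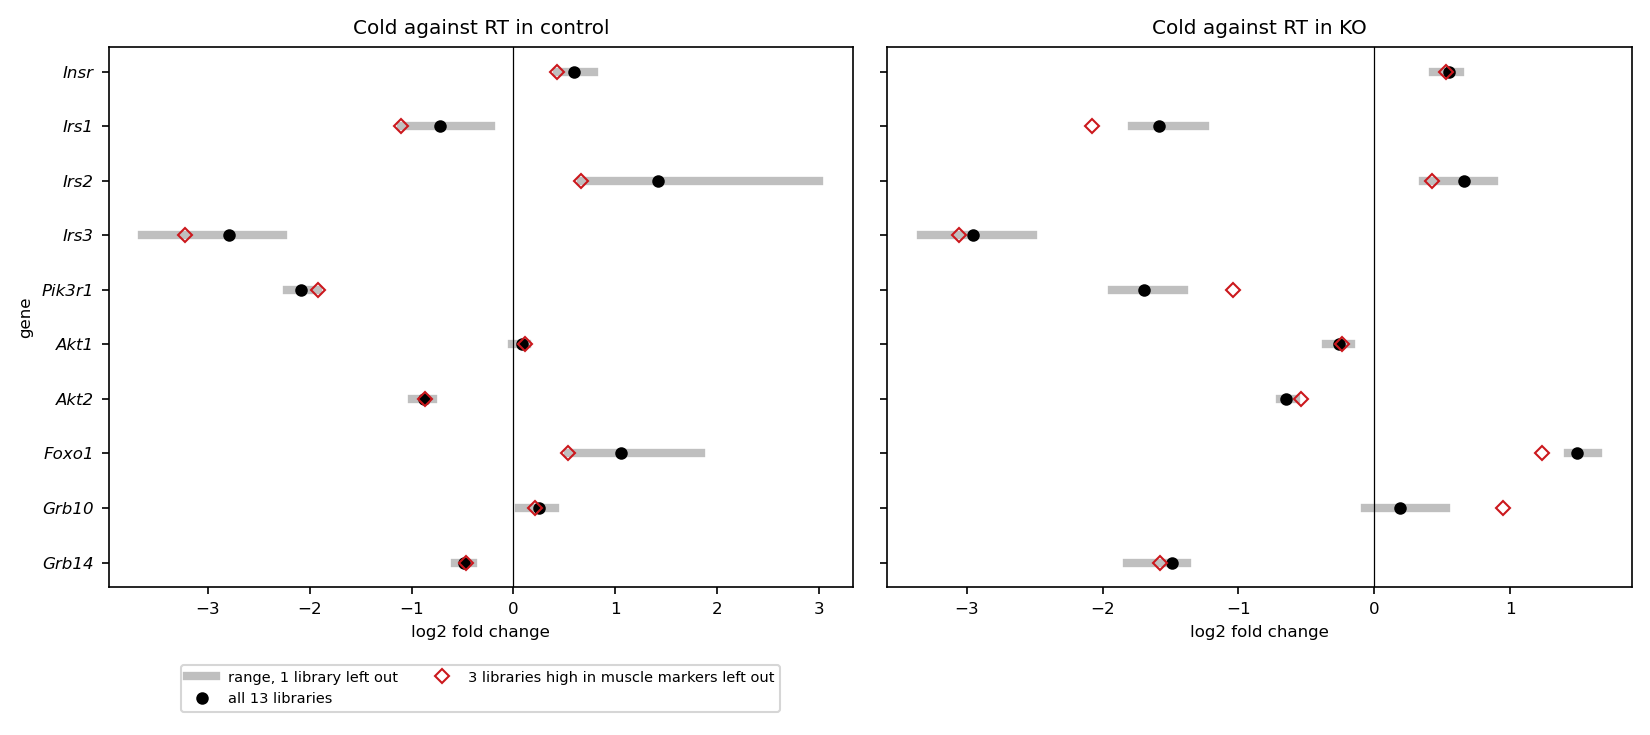
Log2 fold change of cold against RT (x axis) for each gene (y axis) in control (left) and KO (right). Black points use all 13 libraries, grey bars span the fits with 1 library left out, and red diamonds leave out the 3 libraries high in muscle markers. Irs2 and Foxo1 in control have wide bars, with diamonds at 0.66 and 0.54.

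Grb14, whose protein blocks the receptor's kinase site, was the one gene of the 10 called between KO and control. At RT, Grb14 stood at 31.7 and 30.7 CPM in control libraries and at 27.9, 32.7 and 33.1 in KO. In cold, Grb14 stood at 25.9, 22.2, 22.9 and 17.6 CPM in control libraries and at 18.4, 9.39, 8.44 and 8.47 in KO. The 4 cold libraries of each genotype lay below its RT libraries, and 3 KO cold libraries lay below all control cold libraries. KO cold 1 stood apart from the other 3 and overlapped control cold 4. Grb14 fell 2.81-fold with cold in KO (log2 -1.49 ± 0.24, adjusted p 0.000412), a call that held with any 1 library left out and without the muscle-high libraries (-1.57, adjusted p 0.0257). In control the log2 fold change was -0.49 ± 0.25 (adjusted p 0.159).

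In cold, KO held 2.01-fold less Grb14 than control (log2 -1.01 ± 0.23, adjusted p 0.0182), on 15 to 30 counts in each KO library and 25 to 45 in each control library. Leaving out control cold 1, KO cold 2, KO cold 3 or KO cold 4 ended the call (adjusted p 0.0511 to 0.0620), and leaving out KO cold 1 gave a log2 fold change of -1.34 with an adjusted p of 0.00180. Without the muscle-high RT libraries it was -1.0002 (adjusted p 0.0382). At RT the genotypes differed by -0.0035 ± 0.25 (adjusted p 1). The test of the difference between both cold responses gave -1.004 ± 0.34 (unadjusted p 0.00983, adjusted p 0.439), the smallest p of the 10 there. None of the 10 passed that test, where 0.0181% of all genes did (2 genes), 913 genes were under an unadjusted p of 0.05, and DESeq2 called 30 and limma-trend 7, none of the 10 by either.

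Grb10, the imprinted relative of Grb14, passed in no comparison. At RT, Grb10 stood at 26.7 and 27.7 CPM in control libraries and at 29.9, 21.2 and 12.6 in KO. In cold, Grb10 stood at 35.7, 21.0, 27.9 and 45.2 CPM in control libraries and at 25.7, 30.3, 19.7 and 21.4 in KO. All groups of the same genotype or temperature overlapped. The log2 fold changes were 0.25 ± 0.31 and 0.19 ± 0.28 for cold in control and KO (adjusted p 0.587 and 0.681), and -0.41 ± 0.25 for KO against control in cold (adjusted p 0.398). The Grb14 share of Grb10 and Grb14 counts was 53.5% ± 1.24 (SD, n = 2) and 60.4% ± 12.1 (SD, n = 3) at RT in control and KO, and 41.7% ± 9.86 and 30.9% ± 7.65 (SD, n = 4 each) in cold. Every cold share lay below every RT share of the same genotype, with differences of -11.8 points in control and -29.5 points in KO. Both had the smallest exact permutation p those designs allow (0.133 and 0.0571, adjusted 0.214 and 0.171). KO and control overlapped at both temperatures (exact permutation p 0.143 in cold and 0.6 at RT, adjusted 0.214 and 0.6). The smallest p allowed there was 0.0286 in cold and 0.2 at RT. None of the 4 passed, but with these floors no share test can pass after adjustment over all 12, so this decides nothing.

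The remaining insulin pathway genes were read from 5 lists holding none of the 10, with 77 of 88 symbols tested. In control, 17 were higher and 7 lower in cold (median log2 fold change 0.07, against -0.02 over all genes), and in KO 12 were higher and 8 lower (0.04, against -0.01). That is 31.2% and 26.0% of the 77, beside 25.2% and 18.9% of all genes. In KO against control in cold, 1 was higher and 7 lower (-0.03, against -0.01), which is 10.4% beside 5.93% of all genes, and at RT none passed. The counts per list stand beside 12.7% higher and 12.6% lower over all genes in control, and 9.43% and 9.45% in KO. Without the 3 muscle-high libraries 7 of the 8 genotype calls in cold were kept, while 8 of 24 cold calls were kept in control and 3 of 20 in KO. With any 1 library left out 8 of the 24, 11 of the 20 and 3 of the 8 calls were kept.

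At the receptor level, 2 of 15 genes rose with cold in control, and 1 rose and 2 fell in KO. Cblb, a ubiquitin ligase that tags activated receptors, rose from 24.8 ± 0.665 to 106 ± 38.8 CPM in control (log2 2.08 ± 0.31, adjusted p 0.000215). In KO it rose from 24.5 ± 6.03 to 73.2 ± 8.92 CPM (1.57 ± 0.27, adjusted p 0.000761), and both calls held in every fit with 1 library or the 3 muscle-high libraries left out. Gab1, a docking protein beside the IRS family, fell in KO from 18.9 ± 0.103 to 8.59 ± 3.33 CPM (-1.13 ± 0.28, adjusted p 0.0102), with an adjusted p of 0.164 without the muscle-high libraries.

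At the PI3-kinase level, 1 of 12 genes rose and 2 fell with cold in each genotype. Pdpk1, the kinase PDK1 that phosphorylates AKT at the membrane, rose in control from 87.6 ± 2.89 to 164 ± 11.1 CPM (log2 0.90 ± 0.13, adjusted p 0.000179). In KO it rose from 84.3 ± 8.61 to 117 ± 5.06 CPM (0.48 ± 0.11, adjusted p 0.00795), a call lost without KO RT 1 (0.0555) and without the muscle-high libraries (0.149). KO cold held less Pdpk1 than control cold (-0.48 ± 0.10, adjusted p 0.0113), a call that held with any 1 library left out. Pik3r2, the p85β subunit and the nearest relative of Pik3r1, fell in KO from 8.92 ± 2.27 to 3.08 ± 0.851 CPM (-1.50 ± 0.36, adjusted p 0.00741). Without the muscle-high libraries the value was -1.01 and the call was lost. The other gene of this list that fell with cold in KO was Inpp4b. In cold, Pik3r2 reached at most 4.96 CPM in control and 3.95 in KO, and Inpp4b at most 3.10 and 2.26. Both met the filter on low counts through their RT libraries alone, so their falls, counted above, are given as a description.

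**Figure D5:**
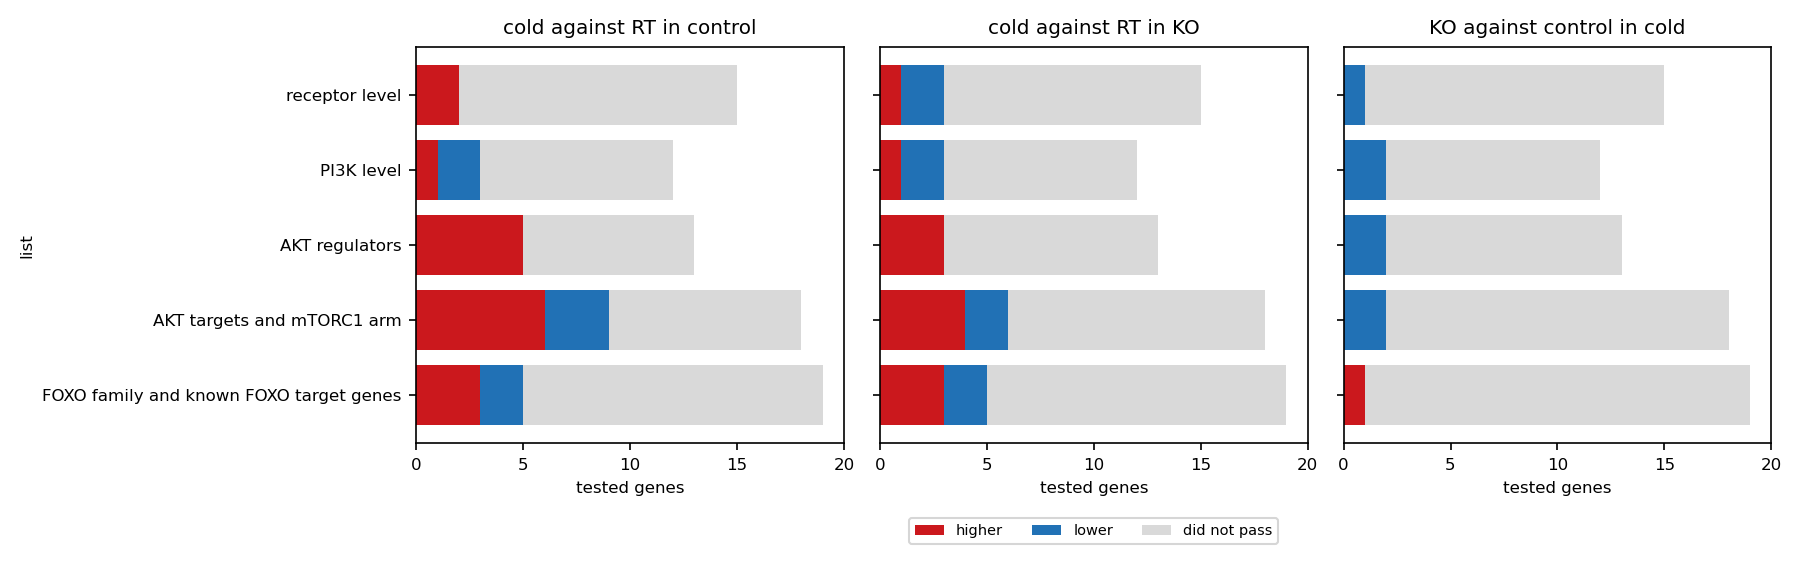
Number of tested genes (x axis) in each of 5 insulin pathway lists (y axis) that were higher, lower or did not pass an adjusted p of 0.05, in 3 comparisons. Among AKT regulators all 5 calls in control and all 3 in KO are rises with cold, and in KO against control in cold 7 of the 8 calls over the lists are lower.

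Among AKT regulators, 5 of 13 rose with cold in control and 3 in KO, and none fell. Trib1 and Trib3 belong to the pseudokinases known to bind AKT. Trib1 rose in control from 177 ± 5.38 to 428 ± 27.3 CPM (log2 1.27 ± 0.25, adjusted p 0.00184). In KO, Trib1 lay at 298 ± 138 CPM at RT and 373 ± 59.3 CPM in cold and was not called. Trib3 rose in KO from 7.71 ± 3.16 to 110.1 ± 47.5 CPM (3.83 ± 0.64, adjusted p 0.000618), and in control from 8.99 ± 4.19 to 63.6 ± 46.1 CPM (2.76 ± 0.75, adjusted p 0.0130), where leaving out either control RT library (0.0654 and 0.0749) or the muscle-high libraries (0.0921) ended the call. Hsp90aa1, the chaperone that stabilises AKT, rose in control from 510.01 ± 306 to 1528 ± 188 CPM (1.59 ± 0.30, adjusted p 0.00136). In KO cold it was at 748 ± 211 CPM, lower than in control cold (-1.03 ± 0.23, adjusted p 0.0140), and both calls held with any 1 library left out, the control rise at 1.07 without control RT 1 and 2.39 without control RT 2. Its rise in KO (0.98 ± 0.25, adjusted p 0.0122) was lost without KO RT 1 or KO RT 2 (0.0507 to 0.0632) and without the muscle-high libraries (0.159). Deptor, an inhibitor in both mTOR complexes, was lower in KO cold (347 ± 87.7 against 585 ± 191 CPM, -0.75 ± 0.20, adjusted p 0.0328). The call was lost in 5 of the 8 fits that left out a cold library (control cold 2 or 4, KO cold 2, 3 or 4, adjusted p 0.0858 to 0.109). It was also lost in a fit of the 2 groups alone (0.0650) and with replicate number as a block (0.0589). Without the muscle-high libraries the call was lost too, at a value of -0.75. Deptor was lower in KO at RT as well, at 389 ± 24.0 CPM against 614 ± 3.18 in control. Those RT groups did not overlap, as for 16.6% of all genes, and the difference did not pass.

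Of 18 AKT targets and genes of the mTORC1 arm, 6 rose and 3 fell with cold in control, and 4 rose and 2 fell in KO. Pde3b, the phosphodiesterase through which insulin lowers cyclic AMP in fat, rose in control from 537 ± 62.6 to 935 ± 118 CPM (log2 0.80 ± 0.15, adjusted p 0.00139). In KO it rose from 616 ± 89.4 to 1009 ± 98.3 CPM (0.71 ± 0.13, adjusted p 0.00133), with an adjusted p of 0.135 without the muscle-high libraries. Tbc1d4, the AKT substrate that releases GLUT4 vesicles, fell in KO from 102.96 ± 14.2 to 42.3 ± 6.39 CPM (-1.28 ± 0.19, adjusted p 0.000289), a call kept in all of those fits. In control Tbc1d4 fell as well, from 97.2 ± 34.3 to 61.2 ± 12.7 CPM (-0.67, adjusted p 0.0289). That call was lost without control RT 1, control cold 1 or control cold 4, and the value was -0.26 without the muscle-high libraries. Rheb, the GTPase that switches on mTORC1, rose in control (0.76 ± 0.15, adjusted p 0.00219), with 0.0732 without the muscle-high libraries. KO cold held less Rheb than control cold (140 ± 14.8 against 209 ± 31.9 CPM, -0.58 ± 0.12, adjusted p 0.00992), a call that held with any 1 library left out. Slc2a4, which makes the insulin-responsive glucose transporter GLUT4, was lower in KO cold (268 ± 60.7 against 434 ± 90.9 CPM, -0.70 ± 0.17, adjusted p 0.0224). Leaving out control cold 2 or 3, or KO cold 2 or 3, ended that call (adjusted p 0.0585 to 0.0773).

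Of 19 FOXO relatives and known FOXO target genes, 3 rose and 2 fell with cold in each genotype. Pdk4, the kinase that shuts off pyruvate oxidation in fasting, rose in KO from 711 ± 184 to 1418 ± 70.7 CPM (log2 0.996 ± 0.21, adjusted p 0.00327). In control it rose from 628 ± 115 to 1165 ± 337 CPM (0.89 ± 0.24, adjusted p 0.0132), a call lost without control RT 1 (0.160), and neither passed without the muscle-high libraries (0.211 and 0.142). Sesn3, a FOXO target that restrains mTORC1, fell in control (-1.11 ± 0.26, adjusted p 0.00586, lost without control RT 2 at 0.154) and in KO (-1.19 ± 0.26, adjusted p 0.00436, and 0.125 without the muscle-high libraries). Bcl6, a repressor of metabolic genes, rose in control from 68.5 ± 6.53 to 189 ± 21.9 CPM (1.46 ± 0.26, adjusted p 0.000947), a call kept in all of those fits. In KO, Bcl6 lay at 140 ± 64.5 CPM at RT and 152 ± 4.64 CPM in cold and was not called. Cat, the catalase gene, was the one gene of the lists that was higher in KO cold (974 ± 191 against 677 ± 88.9 CPM, 0.52 ± 0.13, adjusted p 0.0257). Leaving out control cold 2 or 3, or KO cold 1 or 4, ended that call (adjusted p 0.0523 to 0.0854). None of the 77 genes passed the test of the difference between the cold responses of KO and control.

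Marker lists of other cells were read in the same comparison of KO and control in cold. Of the 12 muscle, 12 endothelial, 10 macrophage, 10 fibroblast and 5 erythroid markers tested, 0 passed. Lipe of the adipocyte list was higher in KO, and Des of the smooth muscle list and Pmp22 of the Schwann cell list were lower, while no lymphocyte marker held enough counts to test. Fibroblast sums were 718 to 1705 CPM in control cold and 734 to 866 in KO cold, with 0 of 10 markers at 0 counts in either group. With cold, 5 of 10 fibroblast markers were lower in KO and none in control, where sums were 1077 to 1090 CPM at RT, and Ly6a of that list was higher in both. Pecam1, Eng and Esam of the endothelial list were higher in cold in both genotypes, while Tie1 and Emcn were lower in control, with medians of -0.0030 in control and 0.18 in KO on the log2 scale. Of the remaining lists Cd163 (macrophage) was higher in both, Pmp22 (Schwann cell) higher in control, and Cspg4, Notch3 and Mcam (smooth muscle) lower in both. The part of these markers in the results was not tested.

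Across all 13 libraries the genes most like each of the 8 called genes were listed as a description, by Pearson r of log2 CPM. All libraries share the split between RT and cold, which such values reflect. For Irs2 these were Apold1 (r = 0.947), Cebpb (0.943) and Dio2 (0.918), the deiodinase that activates thyroid hormone in brown fat. For Foxo1 they were Klf9 (0.968), Cyp4b1 (0.963) and Acer2 (0.963). Pik3r1 was most like Fsd2 (0.972), Slc1a5 (0.971) and Slc50a1 (0.965), and Akt2 most like Slc22a3 (0.984), Tspan18 (0.973) and Scarb1 (0.970). Grb14 was nearest to Oxr1 (0.927) and Pdk1 (0.904), and Irs1 to Zdhhc20 (0.952), Znrf2 (0.893) and Arpc1b (0.885). Insr was nearest to Scp2 (0.911), D230025D16Rik (0.911) and Oplah (0.898), and Irs3 to Vmac (0.950), B230369F24Rik (0.943) and Prox2 (0.938).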

How the data were processed

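RNA of brown adipose tissue was extracted with TRIzol and a column, with QuantSeq libraries, which read the 3′ end of mRNA, per the labels' protocols. The authors deposited raw counts per Ensembl gene, whole numbers without scaling. The build is GRCm39, per the submitters' processing notes. These also list STAR 2.7.10b and HTSeq 0.12.3, then UMI-tools 1.1.2 and Trim Galore 0.6.7, and without version limma and edgeR. Use of molecular identifiers and of strand in counting is not given in the sources used here, so a gene cannot be told from an antisense or overlapping partner.

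Of 55632 lines, 275 repeated an identifier and were dropped. Unnamed genes held 0.00248% to 0.00569% of counts. In R 4.3.3, genes passing filterByExpr (minimum count 10) received TMM scaling and were fitted with edgeR 4.0.16 quasi-likelihood over all 13 libraries, 1 coefficient per group, 5 two-sided contrasts, called at a Benjamini-Hochberg adjusted p under 0.05 over 11073 genes. The common coefficient of variation was 16.1%. All library names share the same ending, and no batch term was fitted. Shares used exact permutation tests (Python 3.11.15), 12 in all. Alternatives were RLE and upper-quartile scaling, no filter, DESeq2 1.42.0, limma-trend 3.58.1, a replicate block, only the groups compared, and each library left out. Tests were first tried on simulated counts.

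The genes and lists were chosen with earlier results of these data known, so no p was adjusted over them alone. The genes named were the 10, Stim1 and Stim2, up to 6 called genes with the smallest p per pathway list and contrast, and the 3 with the highest Pearson r (log2 CPM, prior count 2) per called gene. Some genes that this rule names are not reported here. Promoters came from RefSeq on GRCm38.p6, while the counts use GRCm39, so no gene coordinates of the counts are given.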

Additional observations from a re-analysis of the deposited data

Results flagged for a closer look

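One value stood far from the rest of its group. Grb14 in KO cold replicate 1 was at 18.4 CPM, while the other 3 KO cold libraries lay at 8.44 to 9.39 CPM, so that the gap took 0.904 of the group's range. Of the 26 groups of 4 libraries checked this was the 1 found, and chance gives about 1 in 20.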

How the results depend on the processing

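Counts of calls moved more than directions did. Between KO and control in cold, the 1 call among the 10 genes was 2 with upper-quartile scaling (Insr and Grb14), 3 without the filter on low counts, 2 without the 3 muscle-high libraries, and 0 to 2 with 1 library left out, while 392 to 716 of all genes passed. At RT 50 genes passed without the filter, 3 with DESeq2 and 0 to 3 with 1 library left out. For cold against RT in control, 1685 genes passed in a fit of the 2 groups alone, 870 without the muscle-high libraries, and 1067 to 2821 with 1 left out, the lowest without control RT 1. In KO 452 passed without the muscle-high libraries and 1219 to 2271 with 1 left out, the lowest without KO RT 1. The difference of cold responses had 133 calls without the filter, 30 with DESeq2, 7 with limma-trend, 0 with a replicate block, 0 without the muscle-high libraries and 0 to 4 with 1 left out.

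The log2 fold changes that reversed, 49 in all, were called in no fit. For KO against control in cold, leaving out 1 library moved Foxo1 over -0.20 to 0.025 and Irs3 over -0.29 to 0.97. At RT it moved Irs1 over -0.27 to 0.60, Irs2 over -0.37 to 1.96, Irs3 over -0.15 to 0.80, Pik3r1 over -0.36 to 0.17, Akt1 over -0.0089 to 0.060, Foxo1 over -1.05 to 0.25, Grb14 over -0.055 to 0.071, and the Irs2 share difference over -2.74 to 22.0 points. For cold against RT it moved Akt1 in control over -0.015 to 0.14 and Grb10 in KO over -0.071 to 0.53. For the difference of cold responses it moved Insr over -0.22 to 0.13, Irs2 over -2.33 to 0.0027, Irs3 over -0.68 to 0.69, Foxo1 over -0.33 to 0.97 and Grb10 over -0.31 to 0.29. Without the muscle-high libraries, RT values were -0.13 for Irs2, -0.034 for Irs3 and 0.11 for Grb14, and the difference was 0.10 for Insr, 0.16 for Irs3 and 0.73 for Grb10. Grb14 at RT was 0.0014 without the filter. Upper-quartile scaling gave -0.019 for Akt1 in control cold, and differences of 0.013 for Insr and 0.00090 for Grb10, while limma-trend gave 0.051 for Grb10. The causes were not tested.

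Same-numbered libraries of KO and control in cold correlated at -0.163 to 0.138 in their deviations, so the numbers were not taken as pairs. With the replicate block, RT values reversed to -0.017 for Irs1, -0.032 for Akt1 and 0.048 for Grb14, and the difference for Irs3 to 0.052. With the block 564 genes passed for KO against control in cold, against 657 without it. It gave Insr an adjusted p of 0.0581 in control and 0.0647 in KO for cold against RT, and Irs1 an adjusted p of 0.0168 in control.

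Grb14, Grb10 and Irs3 rest on at most 69 counts in a library, which limits their precision.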
